A study of Mus musculus with 8 samples.

Results

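The immunoproteasome and peptide loading genes described here are 10 genes, Psmb8, Psmb9, Psmb10, Psme1, Psme2, Tap1, Tap2, Tapbp, Erap1 and Nlrc5, listed by name for their known roles, with earlier results of these data known. All 10 were found by symbol among the 54146 genes measured. RNA was sequenced from primary mouse astrocytes prepared from the cortices of C57BL/6 pups of postnatal days 2 to 5. The mixed glial cells were infected with a lentivirus that carried a short hairpin RNA (shRNA) against Gstm1 (GSTM1 KD) or a control shRNA (control KD), selected with puromycin, and depleted of CD11b-positive cells. Both kinds of cells were kept unstimulated (basal level) or received TNF-α (50 ng/ml, 6 h), which gave 4 groups of 2 libraries and 8 libraries in all. All 4 groups therefore carry a lentiviral integration and went through the same selection. The source names no second Gstm1 hairpin and does not say whether same-numbered libraries share a culture, so p-values measure the spread between these libraries only.

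The proteasome is a barrel-shaped protease whose catalytic sites are carried by 3 beta subunits. Inflammatory cytokines, interferon-γ above all, induce 3 alternative catalytic subunits that replace the constitutive ones in newly built particles, which are then called immunoproteasomes, together with the PA28 cap made of Psme1 and Psme2 proteins. The peptides they release are pumped into the endoplasmic reticulum by the TAP transporter, trimmed there by the aminopeptidase ERAP1, and loaded onto MHC class I molecules with the help of tapasin. NLRC5 is a transcriptional coactivator of the class I genes and of several genes of this machinery. In the brain, resting astrocytes are known to hold little of it, and inflammatory signals raise it.

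Total expected counts ran from 17349682 to 34434615 per library, and 19371 to 21557 genes had a count. The targeted gene followed the labels. Among the unstimulated libraries Gstm1 counts were 8153 and 9644 with the control shRNA against 676 and 626 with the Gstm1 shRNA. Among the stimulated ones they were 4851 and 6492 against 527 and 405. All 10 astrocyte markers were detected in every group. The 5 T cell and NK cell markers were at or below 3 counts in each library. Of 15 microglia and macrophage markers P2ry12 was at or below that floor in every group, and Aif1 in all but basal control KD. The number at or below it was 1 in basal control KD and 6 in basal GSTM1 KD, and 3 and 2 in the stimulated groups. Ifng, which encodes interferon-γ, was listed at 0 in all 8 libraries.

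In the GRCm38 annotation (GENCODE release M21) 4 of the members lie side by side in the MHC region on chromosome 17. Psmb9 (chr17:34181987-34187764, minus strand), Tap1 (chr17:34187553-34197225, plus strand), Psmb8 (chr17:34197721-34201454, plus strand) and Tap2 (chr17:34203527-34216321, plus strand) are the only protein-coding genes in a span of 34335 bases. Tap1 and Psmb9 start back to back, with their RefSeq start sites 226 bases apart, and share 212 exon bases on opposite strands. Tapbp lies on the same chromosome (chr17:33915899-33929292). Nlrc5 (chr8:94434356-94527272) and Psmb10 (chr8:105935735-105938444) are on chromosome 8, Psme1 (chr14:55578123-55581529) and Psme2 (chr14:55587441-55591113) are neighbours on chromosome 14, and Erap1 (chr13:74639568-74693201) is on chromosome 13.

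RefSeq promoters (GRCm38.p6, 250 bases before to 50 after each start) were at hand for 8 of the 10 genes, all but Tap2 and Nlrc5. They were searched on both strands for the core of the interferon-stimulated response element (ISRE; GAAA, any 2 bases, GAAA), for the gamma-activated sequence (GAS; TTCNNNGAA), and for the NF-κB consensus. Among 32851 promoters 3.44% held the ISRE core, 8.3% the GAS letters and 8.46% the NF-κB consensus. An ISRE core was found in 2 of the 8 members, Erap1 and Psme1, a GAS match in 1, Psmb8, and an NF-κB match in 0. A match describes these letters only, and no match says only that they are not in this window. The 30 bases around each match are shown on the gene's strand with the match in capitals, since these genes are among those whose responses are given below.
Erap1, chr13:74639839-74639868, ISRE core across the start site: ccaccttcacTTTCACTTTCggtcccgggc
Psme1, chr14:55578493-55578522, ISRE core after the start site: cgagctgtgcTTTCGCTTTCccttcccgct
Psmb8, chr17:34198088-34198117, GAS match before the start site: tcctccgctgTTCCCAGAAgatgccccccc

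The 10 genes differed widely in level. TPM values, which divide by gene length within a library of fixed total and so can be compared between genes, are used for levels. At the basal level in control KD, Psme2 was highest at 179.5 ± 12.7 TPM (SD, n = 2) and Nlrc5 lowest at 1.5 ± 0.93 TPM. Psme1 (105 ± 12.4 TPM) and Psmb10 (93.5 ± 11.3 TPM) came next after Psme2 and overlapped each other. They were followed by Tapbp (69.0 ± 18.7 TPM), Tap2 (47.5 ± 6.84 TPM), Psmb8 (37.1 ± 9.34 TPM), Tap1 (23.4 ± 0.983 TPM), Erap1 (14.4 ± 2.57 TPM) and Psmb9 (9.86 ± 1.56 TPM). Of these neighbours in the order, Tap2 and Psmb8 also overlapped between libraries. By mean TPM Psme2 stayed first and Nlrc5 last in all 4 groups, and Psmb9, the rarest of the catalytic subunits, stayed ninth. In stimulated GSTM1 KD the libraries of Psme2 (260 to 301 TPM) overlapped those of Psmb10 (214 to 275 TPM). Effective lengths estimated by the authors' software ranged from 1438 to 5017 bases for Nlrc5 and from 2714 to 4590 for Erap1, so the TPM of these genes moves with the isoform estimate. Values of one gene across libraries are therefore given below as CPM, counts scaled to a common library total with the TMM factor of each library.

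The first comparison asked how the machinery responded to TNF-α in control KD astrocytes. The 10 genes were higher after stimulation as a group. In each of them both stimulated libraries lay above both basal libraries in CPM, which was so for 16.2% of all 15332 genes tested. With edgeR's quasi-likelihood test and Benjamini-Hochberg adjustment 6 of the 10 rose and 0 fell, while 2.10% of all genes rose and 0.528% fell. The members' median log2 fold change was 1.33 and that of all genes was −0.02. In GSTM1 KD astrocytes the groups again did not overlap in any of the 10, against 22.4% of all genes, and 8 rose and 0 fell, against 2.35% and 0.294% of all genes. Their median log2 fold change was 1.64, and that of all genes −0.01. Both responses share one estimate of the spread from all 8 libraries.

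**Figure D1:**
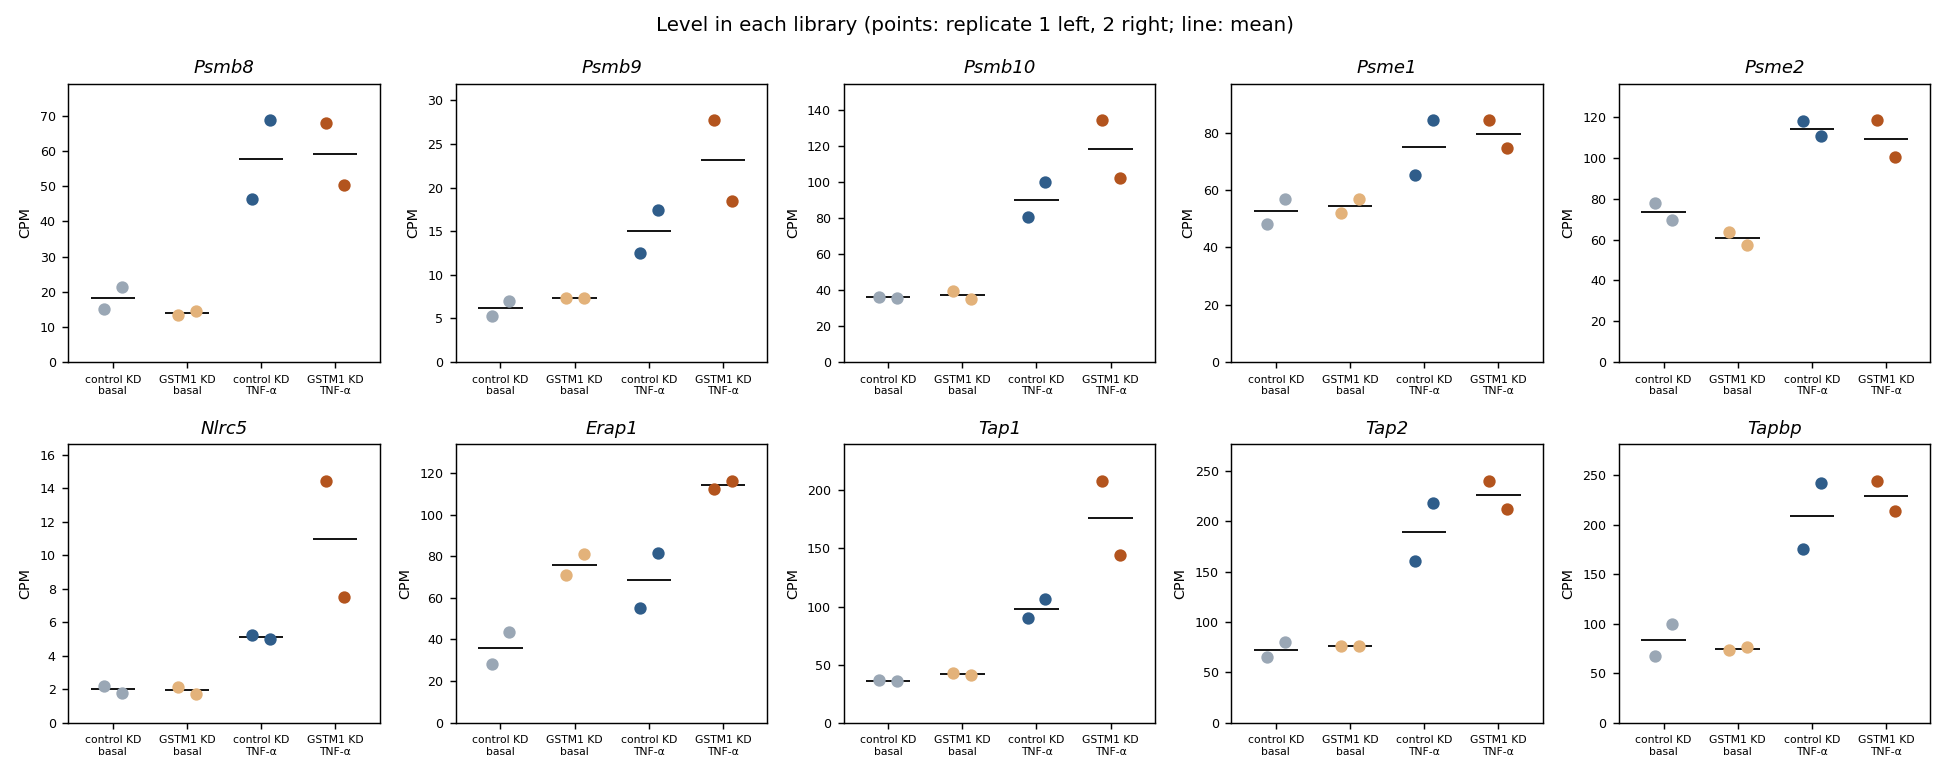
CPM of each gene (y axis, from 0, each panel on its own scale) in the 4 groups, with 1 point per library and the mean of 2 libraries as a line. In all 10 panels the 2 stimulated libraries of each knockdown lie above the 2 basal libraries of the same knockdown, and Erap1 is also higher in GSTM1 KD before stimulation.

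Among the catalytic subunits Psmb8 (β5i, the chymotrypsin-like subunit) moved most in control KD. It measured 14.9 and 21.2 CPM at the basal level and 46.4 and 68.9 CPM after TNF-α in control KD, and 13.4 and 14.4 CPM and then 68.0 and 50.3 CPM in GSTM1 KD. The stimulated libraries of the 2 knockdowns overlapped. The fitted change was 3.19-fold in control KD (log2 1.67, SE 0.253, edgeR adjusted p = 0.0187) and 4.26-fold in GSTM1 KD (log2 2.09, SE 0.259, edgeR adjusted p = 0.00745). Psmb10 (β2i, the trypsin-like subunit) went from 35.9 and 35.7 CPM to 80.3 and 100.1 CPM in control KD, and from 39.2 and 35.2 CPM to 134 and 102 CPM in GSTM1 KD. It rose 2.52-fold (log2 1.33, SE 0.160, edgeR adjusted p = 0.00807) and 3.18-fold (log2 1.67, SE 0.162, edgeR adjusted p = 0.00294).

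Psmb9 (β1i), which shares its start region with Tap1, measured 5.29 and 7.0 CPM at the basal level and 12.5 and 17.4 CPM after TNF-α in control KD. Its log2 fold change of 1.28 (SE 0.259) there just missed the threshold in edgeR (adjusted p = 0.0540). It passed there in 4 of the 9 other settings that left out no library. In GSTM1 KD it measured 7.34 and 7.31 CPM and then 27.8 and 18.5 CPM, and it rose 3.16-fold (log2 1.66, SE 0.260, edgeR adjusted p = 0.0207). The stimulated GSTM1 KD library with the lower Psmb9 value lay only slightly above the higher control KD library. Over the 8 libraries Psmb9 had 146 to 601 counts, and Tap1, with which it shares 212 exon bases on the opposite strand, had 820 to 4511. The library kit was strand-specific, but the strand setting of the counting is not given in the sources used here, so the part of Tap1 reads in the Psmb9 values was not tested.

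The constitutive counterparts did not move with them. The log2 fold changes of Psmb5, Psmb6 and Psmb7, the subunits that Psmb8, Psmb9 and Psmb10 replace, were 0.01 (SE 0.0922), −0.03 (SE 0.0978) and −0.05 (SE 0.106) in control KD and 0.06 (SE 0.0924), 0.06 (SE 0.0987) and 0.04 (SE 0.106) in GSTM1 KD. Of 36 genes of the constitutive proteasome 0 rose and 0 fell in either response by edgeR, and DESeq2 called 0 in both. At an unadjusted p below 0.05 there were 1 higher gene in control KD and 2 higher genes in GSTM1 KD. Of all 15332 genes 1920 and 1670 had such a p in edgeR, in either direction. The medians of the 36 constitutive genes were 0.02 and 0.06 on the log2 scale.

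**Figure D2:**
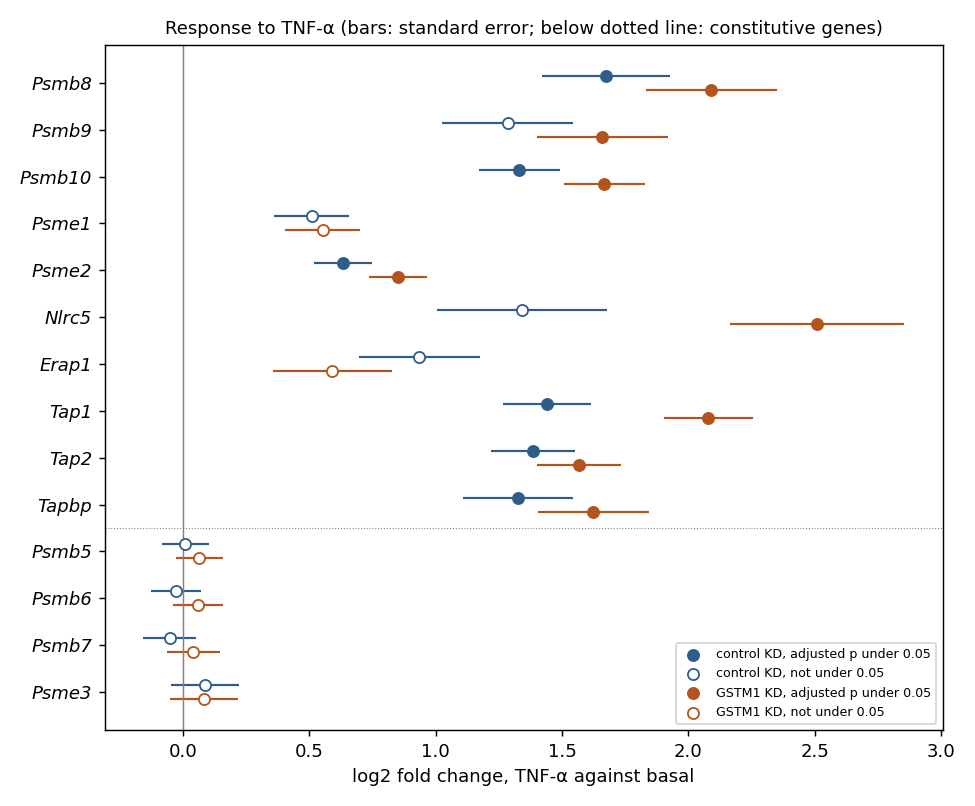
Log2 fold change after TNF-α against the basal level (x axis) for the 10 members and, below the dotted line, 4 constitutive proteasome genes, in control KD (blue) and GSTM1 KD (orange), with bars of 1 standard error and filled points for adjusted p under 0.05. The members lie between 0.51 and 2.51, and the 4 constitutive genes lie near 0.

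Because the inducible subunit stands in for a constitutive one, the share of the inducible transcript in each pair was computed from TPM. The share of Psmb8 in Psmb8 and Psmb5 transcripts was 11.3 ± 2.92% (SD, n = 2) in basal and 28.2 ± 6.84% in stimulated control KD, and 9.49 ± 1.56% and 29.6 ± 2.31% in the corresponding GSTM1 KD groups. In control KD Psmb10 made up 23.9 ± 0.552% and 40.7 ± 4.35% of Psmb10 and Psmb7, and the GSTM1 KD values were 21.8 ± 1.66% and 43.9 ± 4.48%. Psmb9 took the smallest share of its pair with Psmb6. Control KD had 2.40 ± 0.477% and 5.51 ± 1.54%, and GSTM1 KD had 4.59 ± 0.817% and 11.6 ± 2.73%. All of these shares had stimulated libraries above basal libraries in both knockdowns, and the constitutive transcript stayed the more abundant of each pair in every library. The Psmb9 share was the only one whose libraries did not overlap between knockdowns in both states, and Psmb6, its denominator partner, was itself lower in GSTM1 KD. Shares of 2 libraries against 2 cannot pass 0.05 in an exact permutation test, whose smallest two-sided p is 0.333, so no p is given.

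**Figure D3:**
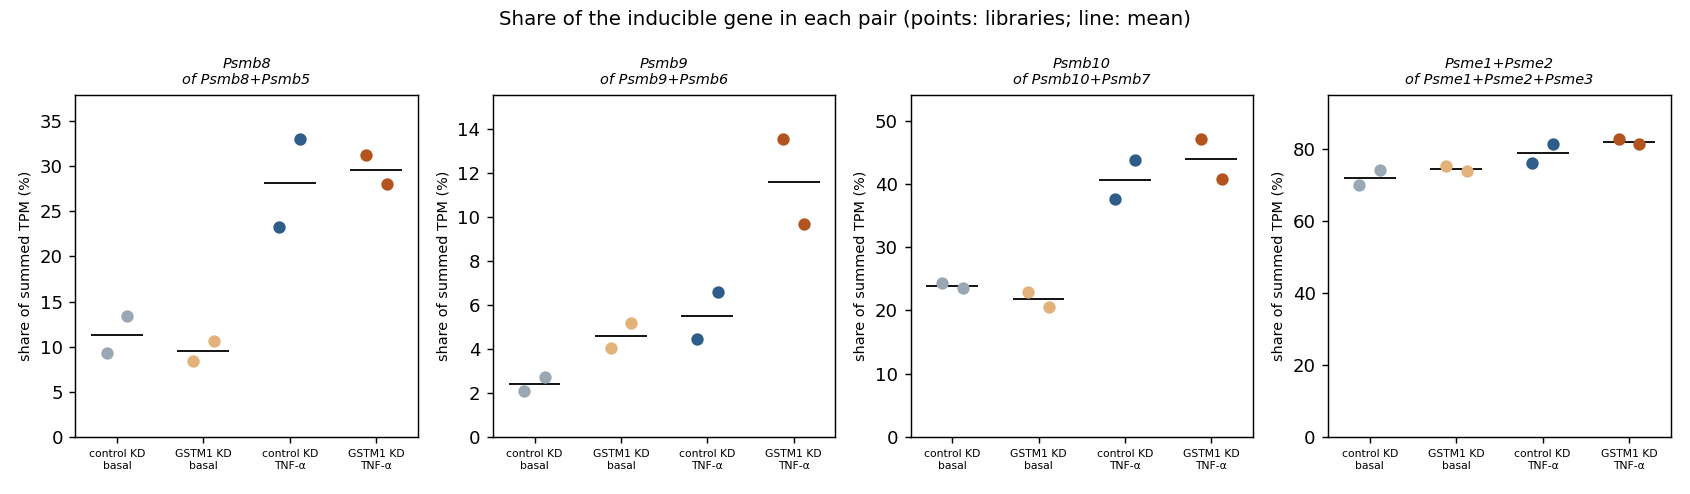
Share of the inducible transcript (y axis, % of summed TPM, from 0) in 3 catalytic pairs and in PA28, with 1 point per library and the mean of 2 libraries as a line. The Psmb8 and Psmb10 shares overlap between the 2 knockdowns after TNF-α, and the Psmb9 share is about 2.40% and 5.51% in control KD against 4.59% and 11.6% in GSTM1 KD.

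The PA28 cap responded less. Psme2 (PA28β) went from 77.7 and 69.8 CPM to 118 and 111 CPM in control KD (1.55-fold, log2 0.63, SE 0.113, edgeR adjusted p = 0.0343), and from 63.8 and 57.5 CPM to 119 and 100.2 CPM in GSTM1 KD (1.80-fold, log2 0.85, SE 0.114, edgeR adjusted p = 0.0105). Psme1 (PA28α) measured 48.2 and 57.0 CPM and then 65.4 and 84.4 CPM in control KD, and 51.9 and 56.9 CPM and then 84.5 and 74.8 CPM in GSTM1 KD. Its log2 fold changes of 0.51 (SE 0.148) and 0.55 (SE 0.148) did not pass in edgeR (adjusted p = 0.167 and 0.149). Psme3, which encodes the nuclear cap PA28γ and is not interferon-induced, had log2 fold changes of 0.09 (SE 0.135) and 0.08 (SE 0.135). Psme1 and Psme2 together made up 72.1 ± 2.93% of PA28 transcripts in basal control KD cells and 78.9 ± 3.85% in stimulated ones, where the GSTM1 KD cells had 74.7 ± 1.08% and 82.1 ± 0.961%.

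The transporter genes rose in both knockdowns. Tap1, whose product forms the peptide transporter with that of Tap2, measured 36.3 and 35.9 CPM at the basal level and 89.9 and 106.5 CPM after TNF-α in control KD, and 42.5 and 41.1 CPM and then 208 and 145 CPM in GSTM1 KD. The 2 stimulated GSTM1 KD libraries were the highest of the 8. Tap1 rose 2.72-fold in control KD (log2 1.44, SE 0.174, edgeR adjusted p = 0.00814) and 4.23-fold in GSTM1 KD (log2 2.08, SE 0.176, edgeR adjusted p = 0.00178). Tap2 went from 65.6 and 79.6 CPM to 161 and 218 CPM in control KD and from 76.2 and 76.2 CPM to 240.2 and 212 CPM in GSTM1 KD. It rose 2.61-fold (log2 1.38, SE 0.166, edgeR adjusted p = 0.00803) and 2.96-fold (log2 1.57, SE 0.167, edgeR adjusted p = 0.00421). The stimulated libraries overlapped between knockdowns in Tap2 and not in Tap1.

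Tapbp, which encodes tapasin, the bridge between the transporter and class I molecules, went from 67.0 and 99.3 CPM to 175 and 242 CPM in control KD and from 72.8 and 75.9 CPM to 244 and 214 CPM in GSTM1 KD. It rose 2.51-fold (log2 1.33, SE 0.217, edgeR adjusted p = 0.0249) and 3.08-fold (log2 1.62, SE 0.219, edgeR adjusted p = 0.0107). Erap1 measured 28.2 and 43.4 CPM and then 55.2 and 81.6 CPM in control KD, and 70.7 and 81.2 CPM and then 112 and 116 CPM in GSTM1 KD. Its log2 fold changes of 0.93 (SE 0.240) and 0.59 (SE 0.236) did not pass in edgeR (adjusted p = 0.117 and 0.408). With the estimated effective lengths as offsets they were 1.45 and 0.57, and the first then passed (adjusted p = 0.0402 and 0.549). Both unstimulated GSTM1 KD libraries lay between the 2 stimulated control KD libraries.

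Nlrc5, the coactivator, had few reads, 34 to 313 per library. It measured 2.21 and 1.80 CPM at the basal level and 5.21 and 4.99 CPM after TNF-α in control KD, where the log2 fold change of 1.34 (SE 0.337) did not pass in edgeR (adjusted p = 0.107). In GSTM1 KD it measured 2.15 and 1.70 CPM and then 14.5 and 7.53 CPM, and it rose 5.70-fold (log2 2.51, SE 0.345, edgeR adjusted p = 0.0117). The 2 stimulated GSTM1 KD libraries were the highest of the 8 and differed from each other by more than the stimulated control KD libraries did. With the estimated effective lengths as offsets, the control KD value fell to a log2 of 0.36 and the GSTM1 KD value stayed at 2.51 (adjusted p = 0.946 and 0.0620).

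These calls depended on single libraries. In control KD, Tap1, Tap2 and Psmb10 passed whichever of its 4 libraries was left out. Psme2 passed only with all of them kept, and Psmb8 and Tapbp were lost without basal replicate 1 or without TNF replicate 2, where 3 members passed as higher and 1.26% and 1.05% of all genes did. In GSTM1 KD only Tap1 passed whichever library was left out, with 2 members called without basal replicate 1 (0.508% of all genes rose), 1 without basal replicate 2 (0.468%), 5 without TNF replicate 1 (1.04%) and 8 without TNF replicate 2 (1.58%). When control KD was fitted on its own 4 libraries 1 member, Tap1, passed as higher (0.473% of all genes did), and when GSTM1 KD was fitted alone all 10 did (3.51%). DESeq2 called 9 members as higher in control KD, all but Psme1 (2.07% of all genes), and 8 in GSTM1 KD (1.95%).

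The genes that work next to the members were followed through a list of 17 class I molecules, chaperones and editors. With TNF-α 6 of them rose in control KD, 7 rose in GSTM1 KD and 0 fell. The shares of all genes were 2.10% and 2.35% for a rise, and 0.528% and 0.294% for a fall. Near-identical heavy chain genes can share reads, so single H2-Q and H2-T genes are uncertain. H2-K1, a classical class I heavy chain, rose by a log2 of 1.23 (SE 0.168) and 1.26 (SE 0.169), and H2-D1, the other one, by 0.83 (SE 0.117) and 0.99 (SE 0.117). Tapbpl, the tapasin-related peptide editor, rose by 1.63 (SE 0.252) and 1.64 (SE 0.250). B2m, the light chain, had 0.39 (SE 0.145) and 0.61 (SE 0.145), both short of the edgeR threshold (adjusted p = 0.316 and 0.100). The general chaperones of the endoplasmic reticulum that also serve this pathway, Calr, Canx and Pdia3, did not pass in either response.

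Of 21 transcriptional regulators of the class I pathway 7 rose with TNF-α in control KD by edgeR, 12 rose in GSTM1 KD and 0 fell. Of all genes 2.10% and 2.35% rose in these responses, and 0.528% and 0.294% fell. DESeq2 called 11 regulators higher in control KD and 12 in GSTM1 KD, where 2.07% and 1.95% of all genes rose. It called 0 regulators lower in either response. Irf1, an NF-κB target that activates class I genes, went from 22.7 and 18.7 CPM to 169 and 189.6 CPM in control KD and from 21.6 and 20.1 CPM to 211 and 177 CPM in GSTM1 KD. That was the highest value of the list in control KD, with a log2 of 3.11 (SE 0.144, edgeR adjusted p = 0.000239), and 3.22 (SE 0.145, edgeR adjusted p = 0.000255) in GSTM1 KD. Rfx5, a subunit of the promoter-bound complex that recruits NLRC5, rose by 1.07 (SE 0.109) and 1.10 (SE 0.110). Irf9 rose in both, by 0.74 (SE 0.139) and 1.74 (SE 0.142). Irf2, an IRF that also binds class I promoters, had 0.74 (SE 0.158, edgeR adjusted p = 0.0651) and rose by 1.22 (SE 0.159, edgeR adjusted p = 0.00922). Ciita, the class II counterpart of Nlrc5, had a log2 of 2.10 (SE 0.632, edgeR adjusted p = 0.187) in control KD and rose by 3.8 (SE 0.670, edgeR adjusted p = 0.0324) in GSTM1 KD from 0.300 and 0.551 CPM. Ifnb1, the gene of interferon-β, had 0 counts in the 4 basal libraries, 7 and 1 in stimulated control KD and 25 and 9 in stimulated GSTM1 KD.

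**Figure D4:**
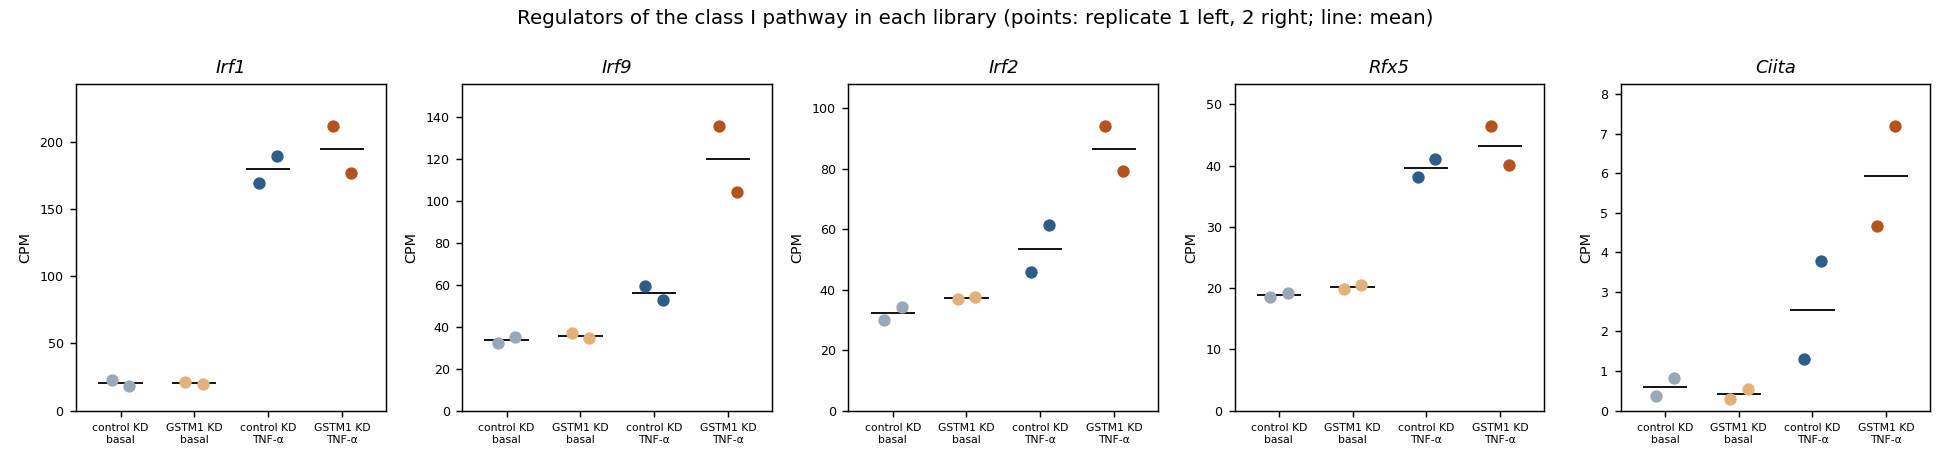
CPM of 5 regulators (y axis, from 0, each panel on its own scale) in the 4 groups, with 1 point per library and the mean of 2 libraries as a line. In Irf1 and Rfx5 the stimulated libraries of the 2 knockdowns overlap, and in Irf9 and Irf2 both stimulated GSTM1 KD libraries lie above both stimulated control KD libraries.

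The second comparison asked what the knockdown of Gstm1 did at the basal level, on the 4 unstimulated libraries. Most of the machinery showed no call. Erap1, the peptide trimming enzyme, was the one member that rose, from 28.2 and 43.4 CPM in control KD to 70.7 and 81.2 CPM in GSTM1 KD. Its change was 2.12-fold (log2 1.09, SE 0.217, edgeR adjusted p = 0.0389). Of the members 1 rose and 0 fell, while 4.60% of the 14899 genes tested rose and 5.62% fell. The members' median log2 fold change was 0.05, against −0.002 for all genes. Without overlap between libraries 3 members were higher (Erap1, Tap1, Psmb9) and 2 lower (Psmb8, Psme2), where 32.0% of all genes were higher and 31.0% lower in that way.

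Erap1 passed in all 9 other settings that left out no library, with log2 fold changes of 1.06 to 1.39. It was lost without GSTM1 KD basal replicate 1 (log2 1.18, adjusted p = 0.122) or replicate 2 (log2 0.98, adjusted p = 0.218), where 1 and 3 of all genes passed. Erap1 shares 834 exon bases on the opposite strand with its neighbour Cast, which encodes calpastatin. Cast moved the other way, with a log2 of −0.77 (SE 0.119, edgeR adjusted p = 0.0249) at the basal level and −0.61 (SE 0.113, edgeR adjusted p = 0.0273) after TNF-α. The strand setting of the counting bears on this pair as it does on Psmb9 and Tap1.

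The other members' differences at the basal level did not pass in this edgeR fit. The log2 fold change was −0.38 (SE 0.210, adjusted p = 0.273) for Psmb8, 0.26 (SE 0.225) for Psmb9, 0.06 (SE 0.118) for Psmb10, 0.05 (SE 0.127) for Psme1 and −0.28 (SE 0.114, adjusted p = 0.158) for Psme2. It was 0.21 (SE 0.107) for Tap1, 0.07 (SE 0.125) for Tap2, −0.16 (SE 0.193) for Tapbp and −0.06 (SE 0.318) for Nlrc5. Psme2 passed as lower when control KD basal replicate 2 was left out (log2 −0.37, adjusted p = 0.0280), and Tapbp when replicate 1 was (log2 −0.42, adjusted p = 0.0316). In those fits 17.0% and 8.41% of all genes passed as lower.

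The constitutive proteasome list of 36 genes had 0 higher and 1 lower in edgeR, Psmb6, where DESeq2 called 0 higher and 2 lower. Psmb6 measured 139 and 126 CPM in control KD and 86.5 and 78.6 CPM in GSTM1 KD (log2 −0.69, SE 0.113, edgeR adjusted p = 0.0275). It is the subunit gene that Psmb9 replaces and the larger part of the denominator of the Psmb9 share. Of the 17 class I partners 0 passed in edgeR, with 3 higher and 2 lower at an unadjusted p below 0.05 and 2 called lower by DESeq2. Of all 14899 genes tested 4712 had an unadjusted p below 0.05 in edgeR. Of the 21 regulators 0 rose and 1 fell in edgeR, against 0 and 2 in DESeq2. The edgeR call was Rela, an NF-κB subunit gene (log2 −0.61, SE 0.100, edgeR adjusted p = 0.0270), which was picked out for naming after its values were seen. Without GSTM1 KD basal replicate 1 or replicate 2 Rela did not pass (adjusted p = 0.193 and 0.281). Irf9 (log2 0.09, SE 0.119) and Irf2 (0.21, SE 0.125) did not pass.

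Some markers of other cells differed between knockdowns, in both directions. Of 7 fibroblast and mural markers Col1a2 and Acta2 were lower in GSTM1 KD at the basal level (log2 −1.13 and −1.02, edgeR adjusted p = 0.0352 and 0.0270) and again after TNF-α, where Pdgfrb was higher (log2 0.81, edgeR adjusted p = 0.0337). The list's median log2 fold change was −0.18 and −0.05, and Rgs5 had 1.64 and 1.55 without passing. The list's summed level was 3666 to 4031 TPM in basal control KD against 1838 to 2189 TPM in basal GSTM1 KD. In the stimulated groups it was 3100 to 3171 TPM against 1611 to 1876 TPM. Lum was at or below 3 counts in basal GSTM1 KD. The sum mainly follows Acta2, with mean CPM of 3376 against 1664 at the basal level and 2782 against 1482 stimulated. The next gene of the list, Col1a1, had 167 against 117 and 147 against 109. Of 10 astrocyte markers 1 passed in edgeR, S100b, with a lower level after the Gstm1 knockdown whether or not TNF-α was added (log2 −1.44 and −1.71, edgeR adjusted p = 0.0269 and 0.0387), and DESeq2 called 1 lower and 1 higher in each state. Their summed level overlapped between knockdowns, with 1914 to 4658 TPM against 4584 to 7170 TPM and, stimulated, 1885 to 4448 TPM against 4332 to 6792 TPM, and the list's median log2 fold change was 0.51 and 0.28. The 8 oligodendrocyte lineage markers summed to 105 to 133 TPM against 79.1 to 80.8 TPM, and 93.5 to 108 TPM against 62.1 to 69.5 TPM, with Mag and Mog at or near 0. Of these markers 1 passed, Olig2, which was lower in GSTM1 KD before and after stimulation (log2 −0.85 and −1.14, edgeR adjusted p = 0.0251 and 0.0101). The 15 microglia and macrophage markers summed to 54.3 to 74.1 TPM over all 4 groups. The 6 endothelial markers were low, with 5.6 to 6.29 TPM against 3.12 to 3.9 TPM and, stimulated, 6.78 to 8.22 TPM against 4 to 5.22 TPM, and 0 passed in edgeR (2 lower by DESeq2 at the basal level). The 6 ependymal and choroid plexus markers summed to 75.2 to 117 TPM against 98.8 to 110 TPM, and to 64.8 to 75.6 TPM against 86.7 to 99.97 TPM after TNF-α, with 0 passing in either tool. The part of these other cells in the differences between knockdowns was not tested, and in bulk RNA fewer cells of a type and less RNA per cell cannot be told apart.

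The third comparison put GSTM1 KD against control KD after TNF-α, on the 4 stimulated libraries. Tap1 was the one member past the threshold. It measured 89.9 and 106.5 CPM in control KD and 208 and 145 CPM in GSTM1 KD, which is 1.77-fold (log2 0.82, SE 0.197, edgeR adjusted p = 0.0456). Of the members 1 rose and 0 fell, against 7.26% and 8.92% of the 14593 genes tested. The members' median log2 fold change was 0.30, against −0.01 for all genes. In 5 of the 10, Tap1, Erap1, Nlrc5, Psmb9 and Psmb10, both GSTM1 KD libraries lay above both control KD libraries, which was so for 34.5% of all genes, and in 0 both lay below, against 31.2%.

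Erap1 (log2 0.72, SE 0.186, edgeR adjusted p = 0.0543) and Nlrc5 (log2 1.09, SE 0.345, edgeR adjusted p = 0.0856) came next, and both passed in DESeq2. Each passed in 5 of the 9 other settings that left out no library, DESeq2 among them. Over those settings the log2 fold change was 0.48 to 0.76 for Erap1 and 1.03 to 1.60 for Nlrc5. Psmb9 had a log2 of 0.61 (SE 0.258, edgeR adjusted p = 0.151) and Psmb10 of 0.37 (SE 0.174, edgeR adjusted p = 0.189). The rest lay near 0 with overlapping libraries, at 0.23 (SE 0.167) for Tap2, 0.11 (SE 0.175) for Tapbp, 0.07 (SE 0.147) for Psme1, 0.02 (SE 0.230) for Psmb8 and −0.09 (SE 0.120) for Psme2. Of the genes beside Tap1 in the MHC region, Psmb9 was the one whose libraries did not overlap between knockdowns.

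Tap1 passed in all 9 other settings that left out no library. It was lost without GSTM1 KD TNF replicate 1 (log2 0.54, adjusted p = 0.180), without GSTM1 KD TNF replicate 2 (log2 1.06, adjusted p = 0.0775) and, narrowly, without control KD TNF replicate 1 (log2 0.71, adjusted p = 0.0545). Without control KD TNF replicate 2, 5 members passed as higher (Erap1, Tap1, Tap2, Psmb9 and Psmb10), where 16.7% of all genes did.

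**Figure D5:**
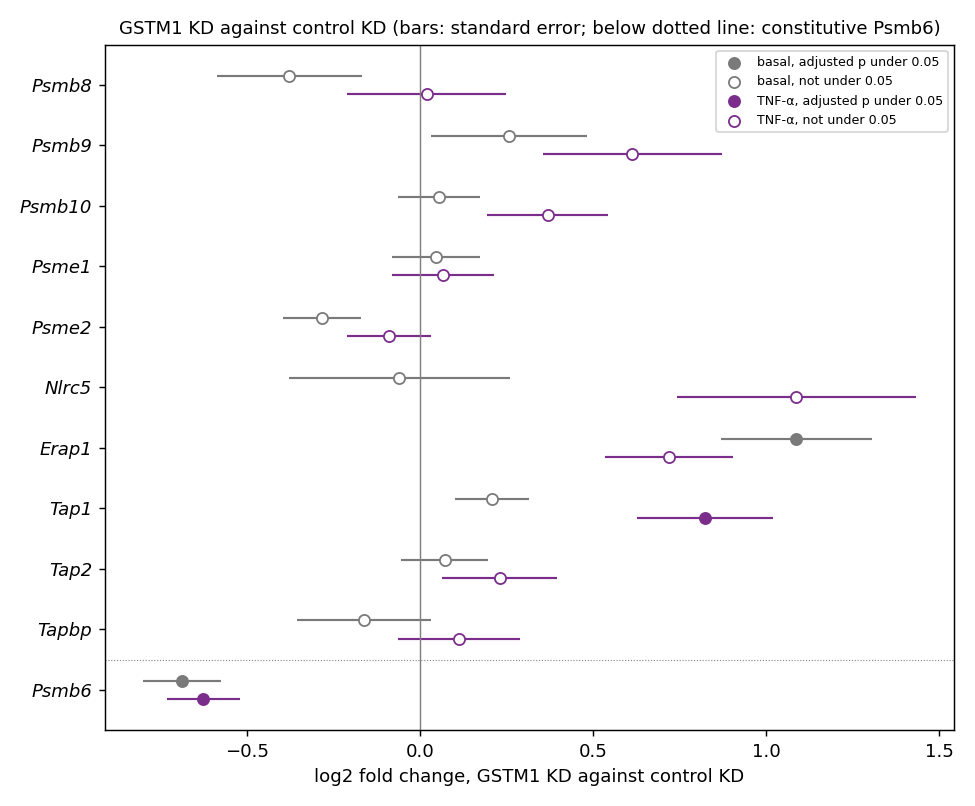
Log2 fold change of GSTM1 KD against control KD (x axis) for the 10 members and the constitutive subunit gene Psmb6, at the basal level (grey) and after TNF-α (purple), with bars of 1 standard error and filled points for adjusted p under 0.05. Erap1 at the basal level (1.09) and Tap1 after TNF-α (0.82) are the filled members, and Psmb6 is lower in both states (−0.69 and −0.62).

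Of the 21 regulators 5 were higher and 3 lower in this comparison by edgeR, against 7.26% and 8.92% of all genes tested. Irf9 measured 59.3 and 52.7 CPM in stimulated control KD and 136 and 104 CPM in stimulated GSTM1 KD (log2 1.07, SE 0.158, edgeR adjusted p = 0.0178). Irf2 went from 45.9 and 61.2 CPM to 94.0 and 79.1 CPM (log2 0.67, SE 0.167, edgeR adjusted p = 0.0498). These libraries did not overlap between knockdowns. Irf1 (log2 0.09, SE 0.129), Rfx5 (0.10, SE 0.122) and Ciita (1.22, SE 0.530, edgeR adjusted p = 0.160) did not pass. Among the other calls, likewise named after their values were seen, were Irf7 and Stat2, higher, and Nfya, Rela and Irf8, lower. In mean CPM (SD, n = 2), control KD against GSTM1 KD, Irf7 had 25.3 ± 3.13 against 75.2 ± 33.5. Stat2 had 61.8 ± 7.12 against 146 ± 57.6, Nfya 48.5 ± 2.43 against 34.8 ± 0.927 and Rela 148 ± 12.6 against 88.5 ± 2.32. Irf8 had 0.917 ± 0.105 against 0.179 ± 0.00874, near the floor of 3 counts in GSTM1 KD (0.1375 and 0.1701 CPM). Without GSTM1 KD TNF replicate 1 Irf9 and Irf2 did not pass (adjusted p = 0.0812 and 0.222), nor did they without replicate 2 (adjusted p = 0.0522 and 0.157).

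Psmb6 was again the one edgeR call among the 36 constitutive genes (2 lower in DESeq2, and 2 higher and 6 lower at an unadjusted p below 0.05). It measured 138 and 123 CPM in control KD and 86.2 and 85.7 CPM in GSTM1 KD (log2 −0.62, SE 0.104, edgeR adjusted p = 0.0221). In each state the Psmb6 call was lost when GSTM1 KD replicate 1 of that state was left out. Of the 17 class I partners 0 passed in edgeR, with 3 higher and 0 lower at an unadjusted p below 0.05 and 2 called higher by DESeq2. For both lists the background is all 14593 genes tested, of which 5286 had an unadjusted p below 0.05 in edgeR. The knockdown comparisons share libraries with the responses to TNF-α, so their values are not independent of each other.

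The last comparison asked whether the response to TNF-α itself differed between GSTM1 KD and control KD (the interaction of knockdown and stimulation, on all 8 libraries). In edgeR 0 of the 10 members passed, and 0 of all 15332 genes did (0%). At an unadjusted p below 0.05 there were 295 genes, 2 of them members, and DESeq2 called 24 genes and 0 members. The 2 members were Tap1 (difference of log2 responses 0.64, SE 0.241) and Nlrc5 (1.17, SE 0.476), both with an edgeR adjusted p of 1. With effective lengths as offsets the Nlrc5 difference was 2.15 (SE 0.729), still without passing. Of the other members the difference was highest in Psmb8 (0.42, SE 0.354), Psmb9 (0.38, SE 0.363) and Psmb10 (0.34, SE 0.223). It was 0.30 (SE 0.303) in Tapbp, 0.22 (SE 0.160) in Psme2, 0.18 (SE 0.231) in Tap2 and 0.04 (SE 0.209) in Psme1. Erap1 was the one member with a negative value, −0.34 (SE 0.335). Over the 8 other settings that left out no library the Erap1 difference ran from −0.88 to −0.33 and passed in 0. Among the regulators Irf9 had a difference of 1.01 (SE 0.196) and Irf2 of 0.48 (SE 0.222), neither of which passed (edgeR adjusted p of 1 in each). The standard errors of the members' differences were between 0.160 and 0.476.

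Across the 8 libraries 8 of the 10 members followed their common mean closely. Pearson's r of each gene's log2 CPM with the members' mean standardised value, given as a description over 8 libraries in 4 groups, was 0.995 for Tap2, 0.994 for Psmb10, 0.990 for Psmb9, 0.986 for Tap1, 0.979 for Tapbp, 0.967 for Psmb8, 0.965 for Psme1 and 0.954 for Nlrc5. It was 0.884 for Psme2 and 0.722 for Erap1, the gene that also differed before stimulation. Each member is part of the mean it is set against. Outside the list 293 of 15332 genes had an r above 0.9, and the 5 closest were Ccrl2 (0.997), Gbp7 (0.996), Slfn2 (0.992), Parp9 (0.992) and Dtx3l (0.991).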

How the data were processed

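The authors prepared strand-specific libraries, mapped 100-base paired reads to GRCm38 with STAR (version 2.5.4b, per the submitters' processing notes) and quantified genes with RSEM (version 1.3.0). Expected counts, deposited without normalization, are its estimates of the fragments per gene. The deposited TPM values, made by the authors' RSEM run, are scaled for effective length and library and were used for levels and shares only. The effective lengths deposited beside them were used in 1 alternative.

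Counts were rounded. edgeR (version 4.0.16, R version 4.3.3) gave TMM factors, filterByExpr by group, and the quasi-likelihood test with Benjamini-Hochberg adjustment over all genes tested at 0.05. Knockdowns were compared on the 4 libraries of each state, and TNF-α responses and their difference on all 8. Standard errors are the log2 fold change divided by the root of the F statistic. The procedure was tested on simulated data. The floor of 3 counts covers counting error only, while the standard errors come from a fit that includes the spread between libraries. Replicates differed beyond sampling noise in all 4 groups, so none was merged.

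The members and lists were chosen with earlier results of these data known. Named genes are all 10 members, the constitutive counterparts, set partners and regulators of the lists, Gstm1, and the 5 other genes most like the members. A regulator of the list is not reported here by name. Gene names came from the files, positions from GENCODE release M21, promoters from RefSeq. The 2 RefSeq start sites of Psme2 were both searched. Alternatives were DESeq2 (version 1.42.0), other scaling and filters, edgeR's newer quasi-likelihood method, length offsets, a replicate block, other library sets and leaving out each library. Proteins were not analysed here.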

Additional observations from a re-analysis of the deposited data

How the results depend on the processing

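With 2 libraries per group the members' calls moved with the setting, while the directions of the responses to TNF-α held for all 10 members in both knockdowns under every alternative run. At the basal level 1 member differed between knockdowns (10.2% of all genes in that fit), 2 with a replicate block (31.6%), and 0 to 2 with 1 library left out (0.00643% to 34.2%). After TNF-α 1 member differed (16.2%), 2 with library size alone (17.2%), with at least 10 counts in every library (17.1%), with effective lengths as offsets (13.5%) or with all 8 libraries (20.3%), 3 in DESeq2 (11.7%) or with a replicate block (29.5%), 5 with no filter (18.8%), and 0 to 5 with 1 library left out (0% to 32.9%). In the response of control KD 6 members passed (2.63%), 10 with no filter (4.74%), 1 on its own 4 libraries (0.486%), and 3 to 5 with 1 library left out (1.14% to 1.99%). In that of GSTM1 KD 8 passed (2.65%), and 1 to 8 with 1 library left out (0.468% to 1.61%). The difference in response had 0 members in each setting. Leaving out a GSTM1 KD library assumes that the lone one varies like the other group, and 0 to 94 genes in all then passed between knockdowns. The other causes were not tested.

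The block used the replicate numbers, whose meaning the labels do not give. Same-numbered libraries deviated together (r of 0.280 to 0.773 between groups), with only 2 pairs per comparison. It gave 9 members in the response of control KD (6.44% of all genes), 8 in that of GSTM1 KD (5.27%) and 0 in the difference. Psme2 passed with it as lower at the basal level (log2 −0.28, adjusted p = 0.0499), and Erap1 and Nlrc5 as higher after TNF-α.

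Members near 0 changed sign without passing when single libraries were left out. At the basal level the log2 range was −0.071 to 0.16 for Psme1, −0.42 to 0.14 for Tapbp (passing at its low end), −0.064 to 0.21 for Tap2, −0.024 to 0.12 for Psmb10 (−0.16 with effective lengths as offsets) and −0.24 to 0.099 for Nlrc5. After TNF-α it was −0.10 to 0.26 for Psme1, −0.099 to 0.37 for Tapbp, −0.24 to 0.33 for Psmb8, −0.21 to 0.030 for Psme2 and −0.036 to 0.21 for Irf1. For the difference in response it was −0.12 to 0.22 for Psme1, −0.024 to 0.55 for Tapbp and −0.016 to 0.40 for Tap2. In the response of control KD it was −0.12 to 0.069 for Psmb6, −0.068 to 0.094 for Psmb5 (−0.021 with library size alone, −0.016 with no filter), −0.15 to 0.058 for Psmb7 and −0.060 to 0.27 for Psme3. In that of GSTM1 KD it was −0.0059 to 0.13 for Psmb6, and Psmb7 had −0.0045 with library size alone. With 1 fixed length per gene the basal Psmb10 share of control KD was 21.3%, and no other share moved by more than its SD.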
